A study of Mus musculus with 6 samples.

Results

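Potassium channel genes were examined in MOP and MODP cells, a pair of progenitor populations sorted from mouse bone marrow. They were taken as every row of the deposited read-count table whose Ensembl identifier maps to a symbol that starts with Kcn. This gave 62 of the table's 22271 genes, 60 of them protein-coding and 2 antisense RNAs. The MOP group held 3 libraries of CD27-low cells and the MODP group 3 libraries of CD27-high cells. Both groups came from mice of the strain C57BL/6JRj, marked WT (wild type) in the titles, with no treatment and no age in the labels. By the series' title, a progenitor limited to macrophages and osteoclasts lies downstream of one that also gives dendritic cells. The comparison of MOP with MODP asks which genes differ between these stages. Whether each library holds cells of a different animal is in no label, so the p-values speak of library-to-library spread only, part of which may be technical.

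Potassium channels let potassium leave or enter a cell along its gradient and so set the membrane voltage. Pore-forming subunits fall into voltage-gated (Kv), inward-rectifier, two-pore-domain and calcium-activated families, and auxiliary subunits change how the pores open or where they sit. In leukocytes the voltage they set supports calcium entry, and potassium efflux is a trigger of the NLRP3 inflammasome in macrophages.

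Library totals ran from 10701425 to 15892640 counts, so that 1 read equalled 0.0639 to 0.0939 CPM (counts per 1000000 counts of the library). Cd27, the sort marker, averaged 3.90 ± 0.570 CPM in MOP and 37.6 ± 1.99 CPM in MODP (SD, n = 3 each). Of the 13 marker genes of early progenitors 10 were lower and 2 higher in MOP, and of 12 monocyte and macrophage markers 10 were higher. Such counts are of genes past the edgeR test given below, which called 16.3% of all tested genes higher in MOP and 14.9% lower. Markers of other marrow cells also moved with the sort. Their summed levels were 4082 to 5912 CPM in MOP and 867 to 1634 CPM in MODP for 13 basophil and mast cell genes, of which 10 were higher. The sums were 71.9 to 117 CPM in MOP and 243 to 329 CPM in MODP for 13 T and NK cell genes, of which 7 were lower. Most of each of these sums came from Nkg7, which averaged 85.4 ± 18.1 CPM in MOP and 226.6 ± 20.2 CPM in MODP (SD, n = 3 each). For 17 erythroid and megakaryocyte genes the sums were 863 to 1289 CPM in MOP and 327 to 905 CPM in MODP, where MODP replicate 2 lay above MOP replicate 3. Of these 17 genes 6 were higher and 1 was lower. No gene of the marker lists was without reads in a whole group. The neutrophil sum was lower in MOP than in MODP at each column number. It was 11923, 21800 and 16081 CPM in MOP and 21788, 34137 and 21625 CPM in MODP. Of its 13 genes 2, Mpo and Elane, were called lower. Mpo alone averaged 7838 ± 817 CPM in MOP and 14739 ± 988 CPM in MODP (SD, n = 3 each). The other 11 had no call, and at column number 3 each of them was higher in MOP. Sums over B cell and plasma cell, and over stromal and endothelial genes overlapped between the groups. The part of these markers in the potassium channel results was not tested. MODP replicate 2 stood apart in the stromal and endothelial sum, at 3562 CPM, against 193 and 269 CPM in the other MODP libraries and 186 to 598 CPM in MOP.

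MOP cells differed from MODP cells in 10 of the 21 potassium channel genes that had enough reads to test. Kcng1, a voltage-gated subunit that modifies other channels, was 9.78-fold lower in MOP, and Kcnip3, a calcium-binding partner of Kv channels, was 2.03-fold lower. Kcnk5, a leak channel, was lower as well. Kcne3, an auxiliary subunit with a single membrane span, was 3.79-fold higher in MOP, followed by the inward rectifier genes Kcnj10 and Kcnj2, the modifier gene Kcng2, Kcnk6 and Kcnab2. Thus MOP was higher in 6 tested members (28.6%) and lower in 4 (19.0%). Calls were made with the quasi-likelihood test of edgeR at a Benjamini-Hochberg adjusted p of 0.05. Of all 12850 genes tested, 16.3% were higher and 14.9% were lower, or 31.2% in either direction. The groups did not overlap in 14 of the 21 members (8 with MOP above and 6 with MOP below), against 47.6% of all tested genes (23.8% above and 23.8% below). The median absolute log2 fold change was 0.58 for these members and 0.23 for all tested genes, and the median signed values were 0.13 and -0.01. Members that pass a count filter only through their higher group tend to differ, so these shares describe the 21 genes and are no test of the family.

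The number of lower members was 2 when MOP replicate 1, MOP replicate 3 or MODP replicate 3 was left out. Over all genes, 2095 were higher and 1913 lower. Without MOP replicate 1 these numbers were 1281 and 1036, and without MODP replicate 1 the lower genes were 1264. Upper-quartile scaling gave 1692 higher and 2452 lower genes, and 6 higher and 5 lower members. In GENCODE M21 the called members described here lie on chromosomes 1 (Kcnj10), 2 (Kcng1 and Kcnip3), 4 (Kcnab2), 7 (Kcnk6 and Kcne3), 11 (Kcnj2), 14 (Kcnk5) and 18 (Kcng2).

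**Figure D1:**
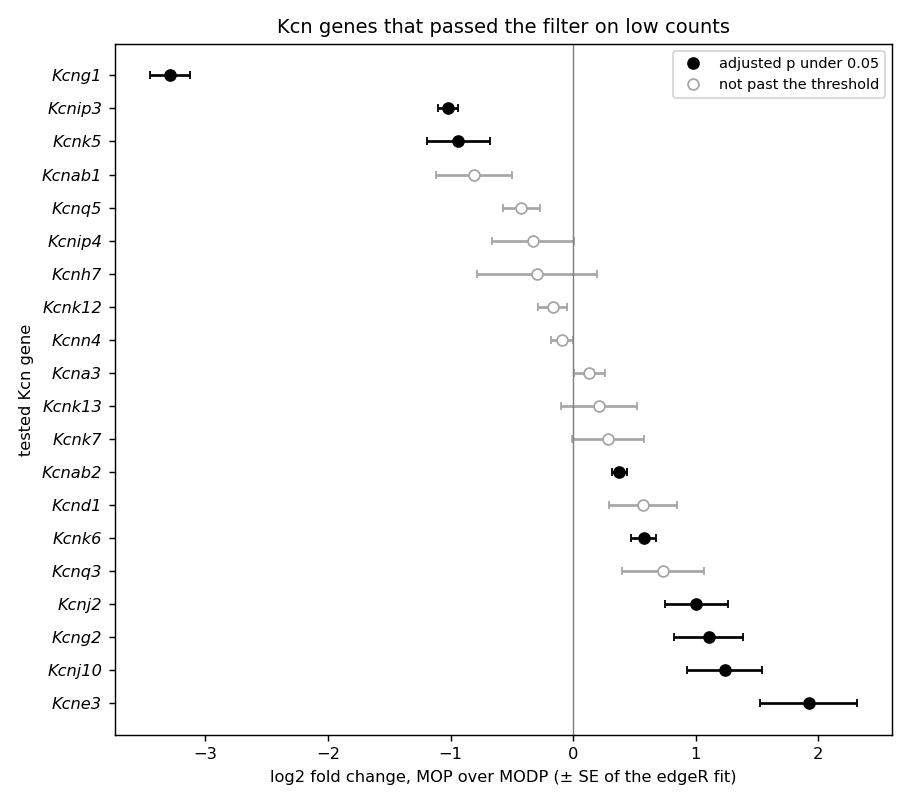
Log2 fold change of MOP over MODP (x axis, bars ± SE of the edgeR fit) for 20 tested potassium channel genes (y axis). Filled points passed the test and open points did not; Kcng1, at -3.29, lies far to the left of the other lower genes and Kcne3, at 1.92, is the highest.

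Inward rectifiers pass potassium more easily into than out of the cell and hold the resting voltage near the potassium equilibrium. Both tested members of this family were called higher in MOP, against 16.3% of all tested genes. Kcnj2 (ENSMUSG00000041695), the classical strong rectifier of muscle and of macrophages, stood at 34.8, 25.1 and 20.8 CPM in MOP replicates 1 to 3 and at 11.99, 17.7 and 10.8 CPM in MODP. The lowest MOP library was above the highest MODP library, a log2 fold change of 1.00 ± 0.25 (SE, edgeR adjusted p = 0.026). Kcnj10 (ENSMUSG00000044708), known from potassium buffering by glia and from kidney, stood at 2.87, 6.07 and 5.38 CPM in MOP and at 2.22, 1.97 and 1.89 CPM in MODP. MOP replicate 1 was close to the MODP libraries and the other MOP libraries were well above them, with a log2 fold change of 1.23 ± 0.31 (SE, edgeR adjusted p = 0.017). The call for Kcnj2 was lost when MOP replicate 1 or 2 or MODP replicate 1 or 3 was left out, and without a filter on low counts (edgeR adjusted p = 0.070). That for Kcnj10 was lost when MOP replicate 2 or 3 or MODP replicate 3 was left out, and without both replicate 2 libraries (edgeR adjusted p = 0.064).

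The letters before the start sites of Kcnj2 and Kcnj10 are shown because these were the 2 tested rectifiers, both rose, and each has a single start in the table. They are 250 bases on the plus strand of GRCm38.p6, from RefSeq, at chr11:111065914-111066163 for Kcnj2 and chr1:172340960-172341209 for Kcnj10. Capitals mark matches on either strand to GAGGAA, the core bound by PU.1, a myeloid ETS factor.
Kcnj2: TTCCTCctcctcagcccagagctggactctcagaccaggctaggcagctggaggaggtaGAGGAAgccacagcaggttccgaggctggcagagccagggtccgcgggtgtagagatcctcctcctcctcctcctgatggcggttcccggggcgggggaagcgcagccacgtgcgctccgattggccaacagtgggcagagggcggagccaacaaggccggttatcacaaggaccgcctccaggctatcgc
Kcnj10: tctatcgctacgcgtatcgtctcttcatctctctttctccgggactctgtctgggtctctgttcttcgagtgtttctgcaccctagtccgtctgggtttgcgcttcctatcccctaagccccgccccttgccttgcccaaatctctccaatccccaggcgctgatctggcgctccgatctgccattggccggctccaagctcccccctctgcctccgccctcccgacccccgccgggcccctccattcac
Kcnj2 held 2 such matches and Kcnj10 held 0, while 23.3% of the 32851 windows of this length hold at least 1. Neither window held TGTGGT (the RUNX core, in 14.0% of windows), AGATAA (the GATA core, 9.99%), TATAAA (the TATA box, 12.4%) or TGANTCA (the AP-1 core, 6.75%), all searched on both strands. Kcnj2 held 14 CpG and Kcnj10 held 17, against a median of 6 over all windows. The matches describe these letters only.

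Two-pore-domain subunits form the leak channels that are open at rest. Of 5 tested members 1 was called higher in MOP and 1 lower, and 3 had no call, against 31.2% of all tested genes called. Kcnk6 (ENSMUSG00000046410), a potassium efflux channel of macrophages, stood at 29.4, 24.7 and 29.8 CPM in MOP and at 18.4, 17.8 and 19.9 CPM in MODP. Every MOP library was above every MODP library, by log2 0.58 ± 0.10 (SE, edgeR adjusted p = 0.0041). Kcnk5 (ENSMUSG00000023243), an acid-sensitive leak channel, stood at 1.84, 2.24 and 1.36 CPM in MOP and at 3.20, 3.85 and 3.44 CPM in MODP. The groups did not overlap, with a log2 fold change of -0.94 ± 0.26 (SE, edgeR adjusted p = 0.025). Leaving out replicate 1 or 3 of either group ended that call (edgeR adjusted p 0.031 to 0.080 over the 6 fits without a library). Kcnk12, a subunit that is silent when expressed alone, averaged 35.5 ± 2.62 CPM in MOP and 39.7 ± 6.05 CPM in MODP (SD, n = 3 each). It had no call (edgeR adjusted p = 0.32), but without MODP replicate 2, the lowest of its MODP libraries, it was called lower (edgeR adjusted p = 0.028). Its close relative Kcnk13, a channel of microglia, averaged 1.26 ± 0.226 CPM in MOP and 1.09 ± 0.163 CPM in MODP. Kcnk7, for which no channel current is known, averaged 1.33 ± 0.176 CPM in MOP and 1.09 ± 0.163 CPM in MODP.

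Voltage-gated pore subunits open when the cell depolarises. Of 6 tested members 1 was called lower in MOP and the other 5 had no call, against 31.2% of all tested genes called. Kcna3, the main voltage-gated channel of T cells and also used by macrophages, was the most abundant tested Kv pore gene per kb of exon. It stood at 19.7, 17.1 and 14.8 CPM in MOP and at 16.8, 15.5 and 14.9 CPM in MODP. The groups overlapped, and the log2 ratio of MOP over MODP was 0.13 ± 0.12 (SE, edgeR adjusted p = 0.47). Kcnq5, a subunit of the M-current of neurons, stood at 9.12, 10.2 and 10.7 CPM in MOP and at 10.8, 14.3 and 15.02 CPM in MODP. MOP was below MODP throughout, by a narrow margin, and the difference missed the threshold (log2 -0.42 ± 0.15, SE; edgeR adjusted p = 0.066). With the column number as a replicate block Kcnq5 was called lower (edgeR adjusted p = 0.022), as it was under upper-quartile scaling (edgeR adjusted p = 0.041) and without MODP replicate 1 (edgeR adjusted p = 0.030). Kcnq3, its partner in the M-current, averaged 2.87 ± 0.764 CPM in MOP and 1.70 ± 0.594 CPM in MODP, and Kcnd1, an A-type channel gene, averaged 3.64 ± 0.161 CPM in MOP and 2.45 ± 0.882 CPM in MODP (SD, n = 3 each). Neither was called (edgeR adjusted p = 0.13 and 0.16), although every MOP library was above every MODP library for both. For Kcnd1 the groups all but touched, at 3.453 CPM in MOP replicate 2 and 3.448 CPM in MODP replicate 1, which is less than 1 read apart.

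Kcnh7, of the ether-a-go-go family, stood apart in replicate 2 of both groups. It was at 3.38, 10.49 and 4.47 CPM in MOP replicates 1 to 3 and at 5.91, 11.1 and 5.82 CPM in MODP, highest in replicate 2 of each group. The log2 difference between the groups was -0.30 ± 0.49 (SE, edgeR adjusted p = 0.69), and 0.071 without MODP replicate 2. Between libraries of the same column number, the ratio of MOP to MODP was 0.572, 0.946 and 0.767, below 1 in each, and with that number as a block the edgeR adjusted p was 0.13. The neutrophil marker sum was also highest in replicate 2 of each group, at 21800 CPM in MOP and 34137 CPM in MODP. The same held for the sums over B cell and plasma cell, stromal and endothelial, erythroid and megakaryocyte, and T and NK cell genes. It did not hold for the remaining marker sums. Gca, a neighbour on the opposite strand that shares 4.57% of the exon bases of Kcnh7, was highest in replicate 2 as well. It stood at 19.9, 45.0 and 31.1 CPM in MOP and 36.5, 59.3 and 34.5 CPM in MODP. The part of these cell types or of Gca in the Kcnh7 reads was not tested.

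Modifier subunits of the Kv family form no channel alone and join other Kv subunits. The 2 tested members moved in opposite directions. Kcng1 (ENSMUSG00000074575) stood at 1.54, 1.53 and 1.82 CPM in MOP and at 17.7, 15.1 and 15.2 CPM in MODP, from 21, 24 and 24 reads in MOP and 216, 161 and 216 in MODP. The groups were far apart, with a log2 fold change of -3.29 ± 0.16 (SE, edgeR adjusted p = 4.3e-05), which ranked 14th from the bottom among the 12850 tested genes. Kcng2 (ENSMUSG00000059852) stood at 3.16, 2.43 and 2.73 CPM in MOP and at 0.985, 1.22 and 1.61 CPM in MODP. Every MOP library was above every MODP library, with a log2 fold change of 1.10 ± 0.28 (SE, edgeR adjusted p = 0.019). A gene of unsettled type on the opposite strand shares 9.1% of its exon bases, and whether counting used the strand is not stated. Kcng1 kept its call in all 14 alternatives (adjusted p at most 0.00096), whereas Kcng2 lost it when MOP replicate 1 or 3 or MODP replicate 1 was left out (edgeR adjusted p up to 0.080).

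**Figure D2:**
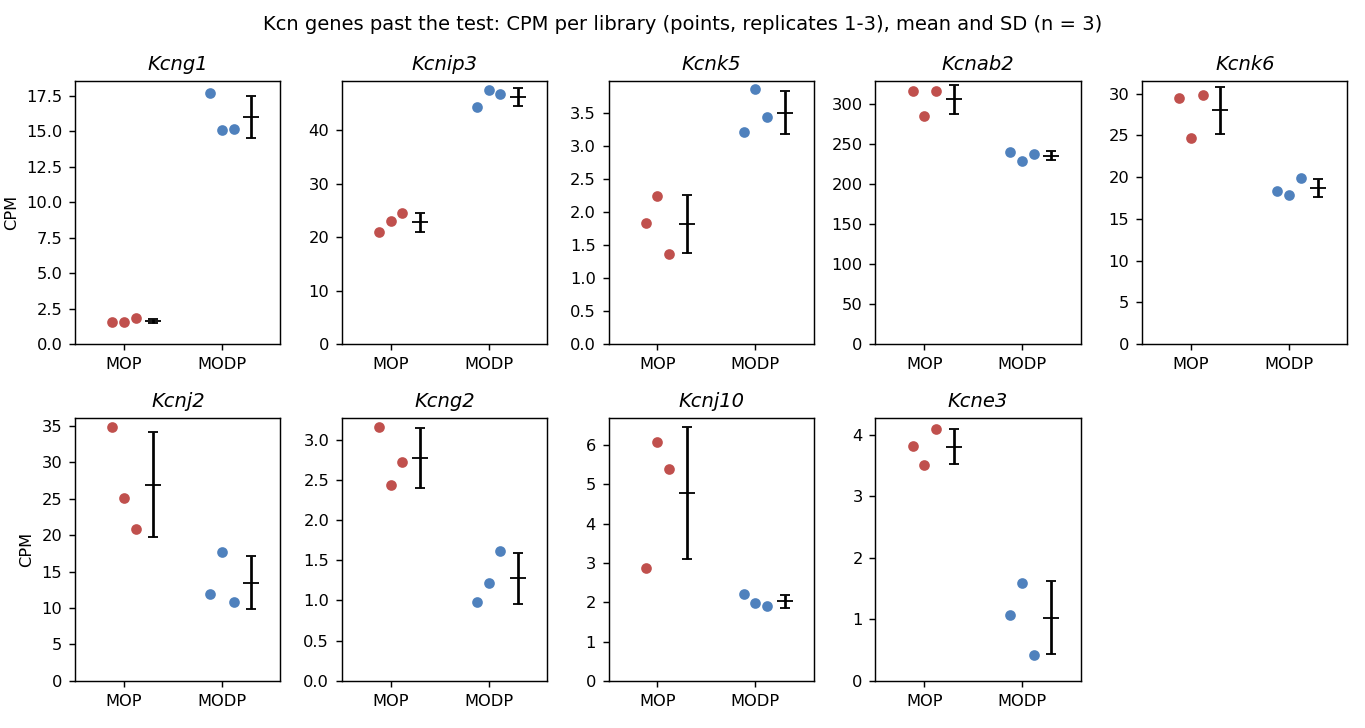
CPM (y axis, from 0) of 9 potassium channel genes that passed the test, in MOP (left of each panel) and MODP (right), with replicates 1 to 3 as points from left to right and the mean ± SD beside them. In each panel all 3 MOP points lie on the same side of all 3 MODP points. Relative to the level of the gene the gap is widest for Kcng1, and it is narrow for Kcnj2, Kcnab2, Kcnk6 and Kcnj10.

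Among calcium-activated channels 1 member could be tested. Kcnn4 (ENSMUSG00000054342), the intermediate-conductance channel of red cells, mast cells, T cells and macrophages, held the most reads of any pore gene. It stood at 58.5, 73.1 and 62.9 CPM in MOP and at 72.9, 65.2 and 69.2 CPM in MODP. The groups overlapped, with a log2 fold change of -0.09 ± 0.09 (SE, edgeR adjusted p = 0.49). Over the 14 alternatives its adjusted p ran from 0.057 to 0.88 and its call did not change.

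Auxiliary subunits held the most reads. Of 5 tested members 2 were called higher in MOP and 1 lower, and 2 had no call, against 31.2% of all tested genes called. Kcnab2 (ENSMUSG00000028931), a cytoplasmic beta subunit of the Kcna channels related to aldo-keto reductases, stood at 317, 285 and 316 CPM in MOP and at 241, 229 and 238 CPM in MODP. Every MOP library was above every MODP library, by log2 0.38 ± 0.06 (SE, edgeR adjusted p = 0.0025). It supplied 53.3% to 57.0% of all potassium channel reads in MOP libraries and 46.4% to 47.2% in MODP libraries. Over all 62 members the summed level was 551 ± 13.7 CPM in MOP and 503.6 ± 8.50 CPM in MODP, and without Kcnab2 it was 244 ± 5.62 CPM in MOP and 268 ± 2.69 CPM in MODP (SD, n = 3 each). The sum in every MOP library was above that in every MODP library with Kcnab2 and below it without Kcnab2. Kcnip3 alone averaged 22.8 ± 1.76 CPM in MOP and 46.2 ± 1.68 CPM in MODP, a gap about as large as that of the sum without Kcnab2. The lower sum therefore does not show that the other members were lower together.

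Kcne3 (ENSMUSG00000035165), which in epithelia keeps Kcnq1 channels open, stood at 3.82, 3.52 and 4.09 CPM in MOP and at 1.07, 1.597 and 0.421 CPM in MODP. These values came from 52, 55 and 54 reads in MOP and 13, 17 and 6 reads in MODP. The groups did not overlap, with a log2 fold change of 1.92 ± 0.40 (SE, edgeR adjusted p = 0.0079). Its usual partner Kcnq1 had 5 reads over the MOP libraries and 8 over the MODP libraries. Kcnip3 (ENSMUSG00000079056), also known as calsenilin and as the repressor DREAM, stood at 20.95, 23.0 and 24.5 CPM in MOP and at 44.3, 47.5 and 46.8 CPM in MODP. MOP was at about the same level in each library and well below MODP, by log2 -1.02 ± 0.08 (SE, edgeR adjusted p = 0.00026). Kcnip4, of the same family, averaged 0.855 ± 0.164 CPM in MOP and 1.06 ± 0.189 CPM in MODP, and Kcnab1, another beta subunit, averaged 1.38 ± 0.234 CPM in MOP and 2.39 ± 0.726 CPM in MODP (SD, n = 3 each). No call was made for either (edgeR adjusted p = 0.50 and 0.080), and for Kcnab1 the groups did not overlap.

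The calls for Kcng1, Kcnip3, Kcnab2, Kcnk6 and Kcne3 held in all 14 alternatives, with adjusted p at most 0.00096, 0.0029, 0.018, 0.025 and 0.034. Each of the other 5 calls was lost in at least 3 of the 6 fits without a library. In libraries of the same column number, the ratio of MOP to MODP was 0.0871, 0.101 and 0.120 for Kcng1 and 0.473, 0.484 and 0.523 for Kcnip3. It was 3.58, 2.20 and 9.71 for Kcne3, 1.32, 1.24 and 1.33 for Kcnab2 and 1.599, 1.38 and 1.497 for Kcnk6. The ratio was even across the numbers for each of these genes except Kcne3, whose MODP values were low and spread out. In bulk RNA, fewer cells that express a gene and less RNA per cell cannot be told apart.

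**Figure D3:**
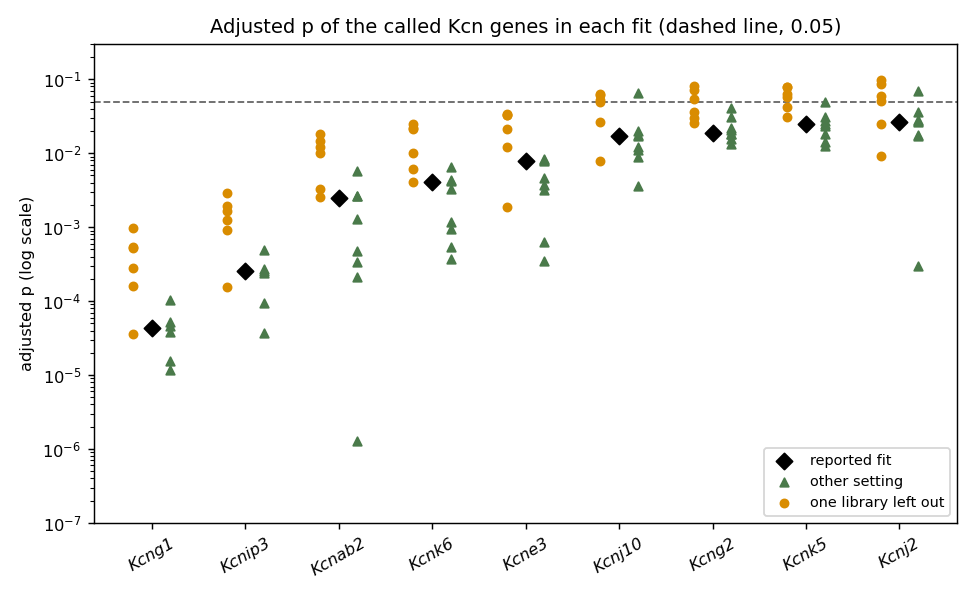
Adjusted p (y axis, log scale) of 9 called potassium channel genes in the reported edgeR fit (diamonds), in the 6 fits that leave out 1 library (circles) and in the other settings (triangles), with the threshold of 0.05 as a dashed line. The first 5 genes stay under the line throughout and the other 4 cross it; 4 values under 1e-07, for Kcng1 and Kcnip3, lie below the axis.

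To set the members against each other, levels were divided by exon length and are given as CPM per kb of exon. By this measure Kcnab2 led in both groups, at 54.9 ± 3.27 in MOP and 42.3 ± 1.04 in MODP, followed by Kcnk12 at 17.98 ± 1.33 in MOP and 20.2 ± 3.07 in MODP (SD, n = 3 each). Kcnn4 came next in both, at 12.7 ± 1.47 in MOP and 13.5 ± 0.754 in MODP. In MODP Kcnip3, at 13.0 ± 0.473, lay within the spread of Kcnn4, and Kcna3 followed at 8.27 ± 0.524. In MOP Kcna3 followed Kcnn4 at 9.06 ± 1.28, while Kcnk6 at 6.74 ± 0.690 and Kcnip3 at 6.43 ± 0.497 lay within each other's spread. Kcng1 had rank 17 of the 21 in MOP, at 0.362 ± 0.0357, and rank 7 in MODP, at 3.55 ± 0.332. Kcne3 had rank 8 in MOP, at 2.14 ± 0.161, and rank 12 in MODP, at 0.578 ± 0.331. Kcnj2 averaged 4.94 ± 1.32 in MOP and 2.48 ± 0.673 in MODP, and apart from Kcnq5 the other 11 tested members were at 1.03 or less in both groups.

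**Figure D4:**
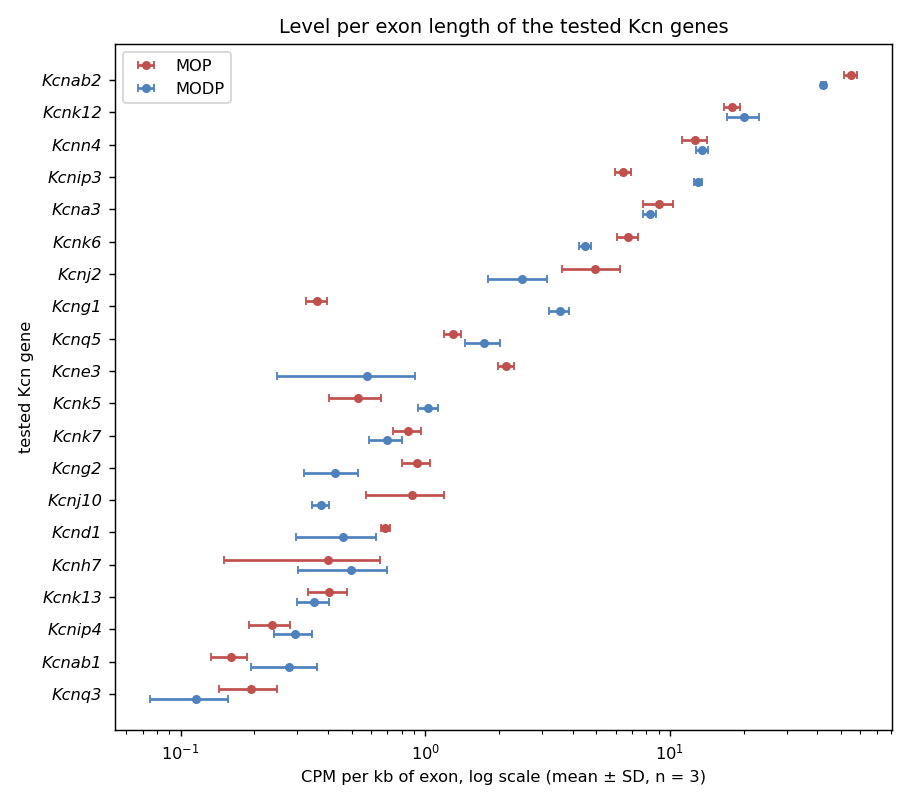
Level of 20 tested potassium channel genes (y axis, ordered by the mean of both groups) in CPM per kb of exon (x axis, log scale), as mean ± SD of 3 MOP libraries (red) and 3 MODP libraries (blue). Kcnab2, Kcnk12 and Kcnn4 lead in both groups, and Kcng1 shows the widest gap on this log scale, at 0.362 in MOP and 3.55 in MODP.

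The other 41 members had too few reads to be tested, 553 in all over the 6 libraries. All 62 members had at least 1 read, since no row of the table was without reads, and 42 to 49 members had reads in any 1 library. GENCODE M21 holds 99 genes whose symbol starts with Kcn, and those beyond the 62 have no row. Whether they had no reads or were not in the annotation used for counting is not stated. Of the 41, 19 held at least 10 reads and 22 held fewer, among them 10 with a single read. The best covered was Kcnj5, a subunit of G protein-gated rectifiers, with 3, 11 and 3 reads in MOP and 10, 7 and 15 reads in MODP. Kcnc1, Kcnab3, Kcnj13, Kcnn1, Kcnj14 and Kcnh6 held 31 to 39 reads each, and their groups overlapped. Gigyf2, on the opposite strand, covers 49.1% of the exon bases of Kcnj13 and had 8201 reads, so the reads of Kcnj13 are uncertain.

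In 6 of the 41 the groups did not overlap in CPM, against 9.62% of all genes left untested. MOP was above in 3 of them (4.55% of untested genes) and below in 3 (5.06%). Kcnh2, the channel of the cardiac rapid delayed rectifier current, had 0, 2 and 1 reads in MOP and 3, 9 and 7 reads in MODP. Kcns1, a modifier subunit, had 2, 2 and 1 reads in MOP and 6, 4 and 11 reads in MODP, and Kcnd3, an A-type channel gene, had 2, 1 and 2 reads in MOP and 2, 3 and 7 reads in MODP. In the other direction, Kcna2, a Kv pore gene, had 4, 8 and 7 reads in MOP and 2, 1 and 3 reads in MODP. Kcnj16, which pairs with Kcnj10, had 9, 5 and 3 reads in MOP and 0, 1 and 1 reads in MODP, and Kcnj8, the pore of vascular ATP-sensitive channels, had 2, 6 and 3 reads in MOP and 1, 0 and 0 reads in MODP. With every row of the table in the fit, 5 members were called higher and 6 lower, against 9.2% and 8.33% of all rows (17.5% in either direction). Kcnh2 and Kcns1 were among the lower ones (edgeR adjusted p = 0.030 and 0.042), and Kcnd3, Kcnj16, Kcna2 and Kcnj8 were not called (edgeR adjusted p = 0.35, 0.056, 0.22 and 0.12). Most of these values were at or below 3 reads per library, the limit that a count of 0 allows, which covers counting error only.

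Of the other members with at least 10 reads, Kcnrg, Kcnh4, Kcnip2, Kcnq1 and Kcnj9 had 10 to 24 reads over the 6 libraries and overlapping groups. The 22 members with fewer than 10 reads were 4 Kv pore genes, 2 modifiers, 2 inward rectifiers, 4 two-pore-domain genes, 3 calcium- or sodium-activated channel genes, 5 auxiliary subunits and 2 antisense RNAs. Kcnma1, the large-conductance calcium-activated channel, was among them with 1 read in MOP and 2 in MODP. Kcnj15 had 2, 5 and 0 reads in MOP and 0 in each MODP library.

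**Figure D5:**
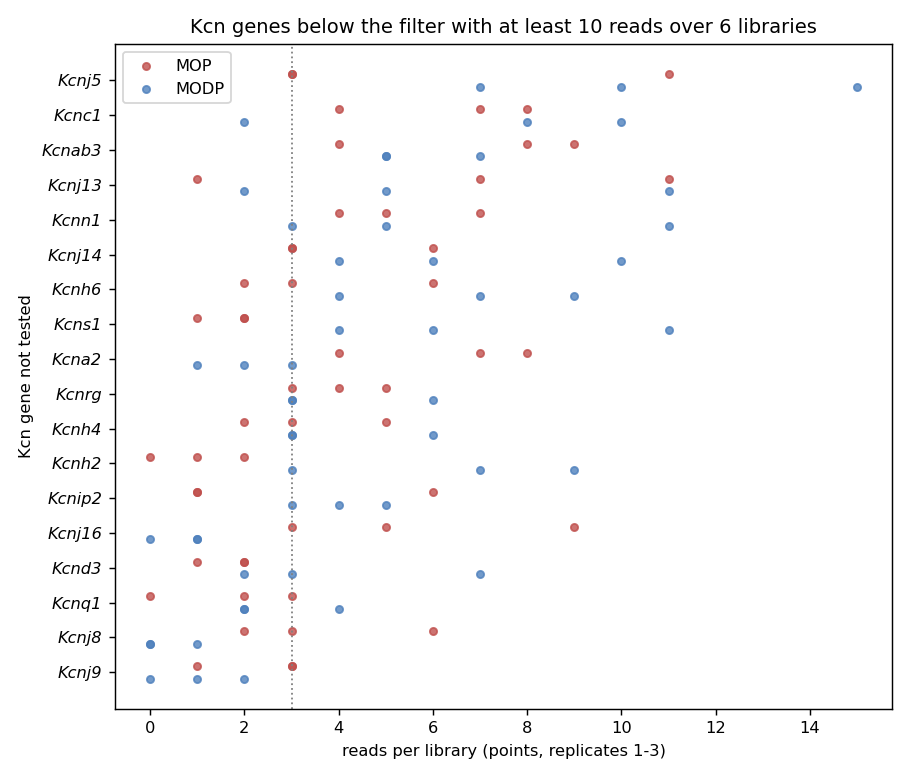
Reads per library (x axis) of 18 untested potassium channel genes with at least 10 reads over the 6 libraries (y axis), with 3 MOP libraries in red above 3 MODP libraries in blue. The dotted line marks 3 reads; Kcnh2 and Kcns1 lie higher in MODP, and Kcna2, Kcnj16 and Kcnj8 lie higher in MOP.

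Genes that work with these channels were taken from 4 further lists. Of all tested genes 16.3% were called higher in MOP and 14.9% lower, with a median log2 fold change of -0.01. Of 20 tested genes on the calcium entry list 9 (45.0%) were called higher in MOP and the other 11 had no call, with a median log2 fold change of 0.32. In 3 alternatives 1 member was called lower, namely when MOP replicate 2 or MODP replicate 1 was left out and without a filter on low counts. The list is not limited to entry channels. It also holds channels of internal membranes, of which Itpr3 and Mcoln1 were higher and Itpr1, Itpr2, Tpcn1 and Tpcn2 had no call. Of the Orai and Stim genes, Orai2 was higher and Orai1, Orai3, Stim1 and Stim2 had no call. P2rx7, the ATP-gated channel whose opening lets potassium out of macrophages, averaged 64.9 ± 10.1 CPM in MOP and 26.7 ± 5.84 CPM in MODP (SD, n = 3 each; edgeR adjusted p = 0.0037). Trpm4, a calcium-activated cation channel, averaged 13.0 ± 3.48 CPM in MOP and 5.49 ± 0.873 CPM in MODP, and Trpv2, a calcium-permeable channel, averaged 73.5 ± 4.02 CPM in MOP and 49.7 ± 6.91 CPM in MODP (edgeR adjusted p = 0.0048 and 0.0042). Without MOP replicate 1, 5 members of this list were higher.

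On the list of potassium and cation transport, 8 of 17 tested members were called higher in MOP and 2 lower, and 7 had no call, against 16.3% higher and 14.9% lower over all tested genes, with a median log2 fold change of 0.34. The plasma membrane calcium pumps moved in opposite directions. Atp2b1 averaged 129.95 ± 3.86 CPM in MOP and 89.1 ± 4.30 CPM in MODP, and Atp2b4 averaged 184 ± 10.3 CPM in MOP and 280.5 ± 18.6 CPM in MODP (SD, n = 3 each; edgeR adjusted p = 0.00050 and 0.00060). Slc8a1, the sodium-calcium exchanger, averaged 14.0 ± 0.668 CPM in MOP and 7.07 ± 0.513 CPM in MODP (edgeR adjusted p = 0.00096). The other lower member, the potassium-chloride cotransporter gene Slc12a7, fell by 0.37 ± 0.11 (SE) on the log2 scale (edgeR adjusted p = 0.032). That call was lost with DESeq2 (adjusted p = 0.075), without both replicate 2 libraries, and without any single MOP library or MODP replicate 3.

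Of 13 tested genes for other potassium-permeable channels, chloride channels and channel partners, 6 were called higher in MOP and the other 7 had no call, against 16.3% higher and 14.9% lower over all tested genes. Their median log2 fold change was 0.38. The 6 called genes were Clcn5, Clcn7, Ostm1, Lrrc8a, Lrrc8c and Lrrc8d, all of chloride or anion channels and their partners. The tested potassium-permeable channel genes Hcn3, Tmem175, Tmem38a and Tmem38b had no call. Clcn5, an endosomal chloride-proton exchanger, averaged 23.9 ± 0.949 CPM in MOP and 13.2 ± 0.480 CPM in MODP (SD, n = 3 each; edgeR adjusted p = 0.00051). Lrrc8c and Lrrc8a, subunits of the volume-regulated anion channel, were higher by 0.68 ± 0.09 and 0.73 ± 0.11 on the log2 scale (SE; edgeR adjusted p = 0.0014 and 0.0019), though 68% of the 31-base words of Lrrc8a also occur in other genes.

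Of 20 tested regulators of these channels 3 were called higher in MOP and 4 lower, and 13 had no call, with a median log2 fold change of -0.04. The called share, 35.0%, was near the 31.2% of all tested genes. Mtmr6, a lipid phosphatase that inhibits Kcnn4, was higher by 0.37 ± 0.06 on the log2 scale, and Ckb, a creatine kinase, by 1.46 ± 0.24 (SE; edgeR adjusted p = 0.0022 and 0.0030). The lower genes were Pik3c2b and Trim27, which act on the same lipid switch of Kcnn4, and the kinase genes Lck and Src. Their log2 fold changes were -0.75 ± 0.17, -0.22 ± 0.06, -2.70 ± 0.42 and -1.25 ± 0.38 (SE; edgeR adjusted p = 0.013, 0.023, 0.0036 and 0.036). The call for Lck held in all 14 alternatives. That for Pik3c2b was lost without MOP replicate 1 or 3, and that for Trim27 when MOP replicate 1 or 2 or MODP replicate 1 or 3 was left out. Src, with 24 reads in MOP and 50 in MODP, kept its call in 5 of 13 alternatives and lost it in 5 of the 6 fits without a library, with DESeq2 (adjusted p = 0.123) and without a filter on low counts (edgeR adjusted p = 0.058). Lck is also a T cell gene. The T and NK cell sum, most of it from Nkg7, was lower in MOP by the values given above. The part of T cells in the Lck reads was not tested. The lower regulators were 1 without MOP replicate 1 and 2 without MOP replicate 2, MOP replicate 3 or MODP replicate 3, and the higher ones were 5 under the column-number block.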

How the data were processed

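RNA of sorted MOP and MODP cells was sequenced in 6 libraries, 3 per group, from TruSeq libraries of TriZol-extracted RNA, per the labels' protocols. Values in the deposited table are whole read counts for each Ensembl gene and were not normalized. TopHat 1.4 and HTSeq appear in the submitters' processing notes; no source used here gives build, annotation or strand setting. Groups follow the labelled cell type. Symbols, exon lengths and overlaps came from GENCODE M21 by identifier, which named 20840 of 22271 genes; the 1431 others held 0.816% of reads.

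CPM (counts per 1000000) used TMM-scaled library sizes. MOP was compared with MODP by edgeR 4.0.16 (R 4.3.3), with filterByExpr, a robust quasi-likelihood fit on group, with p-values adjusted by Benjamini-Hochberg across the 12850 genes tested. SEs are from that fit. Longest transcripts were searched for shared 31-base words. The 14 alternatives were DESeq2 1.42.0, other scalings and filters, replicate blocks and fits without libraries. The test was checked on simulated counts, where it recovered 52% of 1.5-fold, 88% of 2-fold and 96% of 4-fold changes. Of its 174 calls there 7 were false. Genes without a call may therefore still differ by such small folds.

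The members, lists and tests were chosen with earlier results of these data known. All members enter the counts: those called are given with each library's value, other tested ones are named, and untested ones are named from 10 reads. From each further list up to 3 called members with the smallest adjusted p are named. Some genes under these rules are not reported here or drawn in the figures. Other list members were chosen after their values were seen.

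The sample titles carry WT1, WT2 and WT1 within a group, whereas the column names run from WT1 to WT3. Deviations from group means, over 9350 genes, correlated at 0.59, 0.61 and 0.51 between libraries of the same column number. Between others the correlations ran from -0.45 to 0.05. The ratios at the same column number and the block by that number use this pairing. The reported fit was on group alone, so its SEs, adjusted p-values and calls leave the pairing out. With the block, 2724 genes were called higher and 2544 lower over the whole table, against 2095 and 1913 in the reported fit. No library repeated another: the chi-square of 2 libraries of a group was 7.35 to 34.7 per degree of freedom.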

Additional observations from a re-analysis of the deposited data

How the results depend on the processing

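Of the 10 called potassium channel genes, none changed direction in the 14 alternatives; among the tested genes without a call, Kcnh7 changed sign, with a log2 fold change of -0.30 in all libraries, 0.071 without MODP replicate 2 and -0.94 without MOP replicate 2, while its ratio of MOP to MODP was below 1 at each column number. The block by column number added 1 potassium channel call (Kcnq5, edgeR adjusted p = 0.022), and that by title number added none. Leaving out 1 library in turn gave 4 to 6 higher and 2 to 5 lower potassium channel genes, and 1281 to 2524 higher and 1036 to 2275 lower genes over the whole table. Over the same fits 5 to 13 genes of the calcium entry list were higher and 0 to 1 lower. Of the other lists, 1 to 2 transport genes and 1 to 3 regulators were lower. Without a filter on low counts 1 gene of the calcium entry list was lower. With DESeq2 1 transport gene was lower, and without both replicate 2 libraries 1 transport gene and 1 gene of the other channels and partners were lower. Under the column-number block 5 regulators were higher. The cause of these changes was not tested. Depth limits the 41 untested members, most of them at fewer than 10 reads over 6 libraries.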
